A study of Homo sapiens with 12 samples.

Results

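The genes described here are the epithelial cadherins and the catenins that bind them. They are the cadherins CDH1 and CDH3 and the catenins CTNND1, CTNNB1, JUP and CTNNA1, taken by gene symbol and followed across 12 RNA-seq libraries of detached MCF10-A cells. These 6 genes were taken from the 58233 genes of the count table, and all 6 were among the 15749 that passed the filter on low counts. Classical cadherins are transmembrane proteins whose extracellular repeats bind calcium and join neighbouring cells at adherens junctions, and the adhesion is lost when calcium is withdrawn. EDTA is a chelator that binds calcium and other divalent ions. Inside the cell, p120 catenin binds the cadherin tail near the membrane and slows its removal from the surface, beta-catenin or plakoglobin binds further along the tail, and alpha-catenin ties this complex to actin. Beta-catenin that is not bound to cadherin can enter the nucleus and activate target genes with TCF factors, so it serves in both adhesion and Wnt signalling. The values below are transcript counts and do not measure protein, its place in the cell or adhesion.

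The series compared 3 derivatives of MCF10-A, a human line of mammary epithelium that did not come from a tumour, each under the treatment labels EDTA and NA. The groups were Addback EDTA, Addback NA, B4-4 EDTA, B4-4 NA, Vector EDTA and Vector NA, with 2 libraries in each. All 6 groups shared the same handling: cells passaged with 5% horse serum were trypsinised and held for 3 hours in serum-free medium on poly-HEMA, a coating to which cells do not attach, before polyA RNA was sequenced. The sources used here do not say what NA stands for, at what dose and time EDTA was given, how B4-4 and Addback were made or whether they are clones. Nothing says that the 2 libraries of a group came from separate cultures, so the p-values measure only how far these samples spread, and that spread may be technical. In bulk RNA of this kind, fewer cells of a type and less RNA per cell cannot be told apart.

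The libraries held 15685376 to 22156173 counts. ITGB4, the integrin beta 4 chain, had 1060 to 1525 CPM (counts relative to library size after TMM scaling) in Addback libraries and 182 to 395 CPM in B4-4 libraries, against 1678 to 1850 CPM in Vector libraries. The libraries of Addback EDTA and of B4-4 NA were the least alike within a group, with 1362 and 1457 genes at least 2-fold apart, against at most 430 in any other pair. Basal epithelial markers such as KRT5 (4315 to 6776 CPM) and TP63 (81.1 to 161 CPM) were present in every library. Endothelial and leukocyte markers were mixed. The T cell marker CD3E was at 0 in all 12, while PECAM1 (3.35 to 34.2 CPM) and CD14 (7.08 to 54.5 CPM) were present in every library.

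CDH1 (ENSG00000039068), which encodes E-cadherin, lies at chr16:68737225-68835548 on the plus strand of GRCh38 in GENCODE 29, the annotation used here for positions. CDH3 (ENSG00000062038), which encodes P-cadherin, a cadherin of basal epithelial cells, lies at chr16:68636189-68722616 on the same strand and ends 14608 bases before CDH1. CTNND1 (ENSG00000198561), the p120 catenin gene, lies at chr11:57753243-57819546 on the plus strand. CTNNB1 (ENSG00000168036), the beta-catenin gene, lies at chr3:41194741-41260096 on the plus strand. JUP (ENSG00000173801), the gene of plakoglobin, which also sits in desmosomes, lies at chr17:41754604-41786931 on the minus strand. CTNNA1 (ENSG00000044115), the alpha-E-catenin gene, lies at chr5:138610967-138935034 on the plus strand.

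CDH1 and CDH3, and likewise CTNNB1 and JUP, are paralogues, so it matters whether reads can be assigned to the right member. The coding sequences of CDH1 and CDH3 were 65.8% identical over 2468 aligned bases, and those of CTNNB1 and JUP 68.6% over 2214. The longest run of bases shared by each pair was 17, shown in capitals below with 12 bases on either side, from coding positions 1312 to 1352 of CDH1, 1174 to 1214 of CDH3, 586 to 626 of CTNNB1 and 559 to 599 of JUP.
CDH1: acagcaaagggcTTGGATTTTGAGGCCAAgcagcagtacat
CDH3: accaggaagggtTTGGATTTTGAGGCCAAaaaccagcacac
CTNNB1: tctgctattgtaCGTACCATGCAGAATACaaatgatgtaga
JUP: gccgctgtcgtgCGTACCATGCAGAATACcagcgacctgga
The shared runs are far shorter than the 150-base reads. No 150-base stretch of the coding sequences of CDH1, CDH3, CTNNB1, JUP or CTNNA1 occurred in a transcript of another gene. In CTNND1, 46 of 2758 such stretches (1.67%) also occurred in AP001931.1, an overlapping gene that held 0 to 3 counts per library. Together with TMX2-CTNND1, which held 0 to 1 counts, this gene covered 4.64% of the exon bases of CTNND1 on the same strand. Genes on the opposite strand covered 5.62% of the exon bases of CDH1, 11.1% of those of CDH3 and 5.89% of those of CTNNA1. The strand setting of the counting is not given, so reads from those opposite-strand stretches cannot be told apart. The overlapping genes on either strand held at most 26 counts in any library, which does not show how many member reads were gained or lost there.

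In CPM per kilobase of exon, JUP stood highest of the 6 genes by its median over the 12 libraries, at 106.7, followed by CTNNA1 at 89.0 and CDH3 at 83.8. CDH1 had a median of 47.8 on this scale, CTNND1 of 39.8 and CTNNB1 of 29.1. The ranges of JUP (84.5 to 125), CTNNA1 (86.0 to 97.4) and CDH3 (51.0 to 136) overlapped, so their order changed between libraries. On this scale CTNNB1 was the lowest of the 6 by its median, and JUP lay above its paralogue CTNNB1 in every library. The length counted every base annotated as exon in any transcript of the gene. It was 11927 bases for CTNNB1 and 4942 for JUP, whose coding sequences hold 2346 and 2238. The order of the 6 genes rests on this length and was not computed per base of coding sequence.

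The cadherins varied most between libraries and alpha-catenin least. The highest library stood 2.76-fold above the lowest for CDH1 and 2.67-fold for CDH3, against 1.54-fold for CTNND1, 1.49-fold for CTNNB1 and 1.48-fold for JUP. CTNNA1 spanned only 1.13-fold. Its SD over the 12 libraries was 0.063 on the log2 scale, at percentile 0.076 of all genes tested, whose median SD was 0.34.

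**Figure D1:**
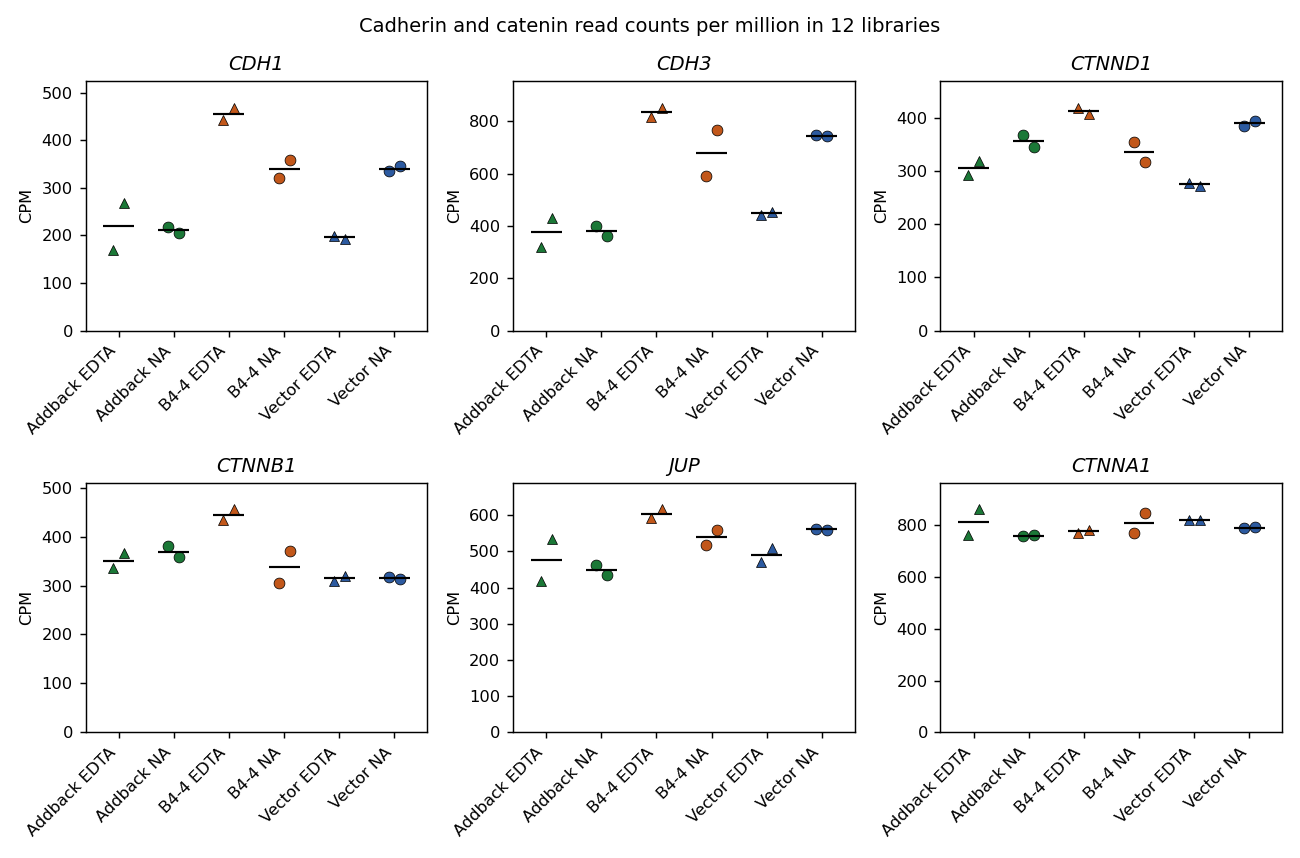
Levels (CPM, linear axes from 0) of the 6 genes in each library; triangles are EDTA, circles are NA, colours mark the derivative and black lines are means of 2 libraries. B4-4 EDTA is the highest group for every gene but CTNNA1, whose libraries all lie between 759 and 860 CPM.

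CDH1 averaged 456 ± 17.7 CPM in B4-4 EDTA, 341 ± 8.57 in Vector NA, 340 ± 26.3 in B4-4 NA, 219 ± 69.9 for Addback EDTA, 212 ± 9.42 for Addback NA and 196 ± 5.36 in Vector EDTA (SD, n = 2 each). The libraries of Vector NA and B4-4 NA overlapped, and those of Addback EDTA spanned both Addback NA and Vector EDTA, so CDH1 showed 3 tiers with B4-4 EDTA on top. CDH3 averaged 833 ± 25.2 CPM in B4-4 EDTA, 744 ± 2.39 in Vector NA, 678 ± 123 in B4-4 NA, 448 ± 8.04 in Vector EDTA, 380 ± 27.9 for Addback NA and 375 ± 79.9 for Addback EDTA (SD, n = 2 each). Its upper 3 groups stood in the same order as those of CDH1, whereas Vector EDTA lay above both Addback groups for CDH3 with no overlap. The neighbours Vector NA and B4-4 NA, and Addback NA and Addback EDTA, overlapped.

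CTNND1 averaged 413 ± 7.76 CPM in B4-4 EDTA, 390 ± 6.20 in Vector NA, 356 ± 14.9 in Addback NA, 335 ± 26.9 in B4-4 NA, 306 ± 19.1 in Addback EDTA and 275 ± 3.40 in Vector EDTA (SD, n = 2 each). B4-4 NA overlapped both of its neighbours in this order, and the other neighbouring groups did not overlap. CTNNB1 averaged 445 ± 14.8 CPM in B4-4 EDTA, with the other 5 groups between 315 and 369 CPM. JUP averaged 604 ± 17.2 CPM in B4-4 EDTA (SD, n = 2), and its lowest group was Addback NA at 449 ± 18.8 CPM. For CTNNB1, each of the other 5 groups overlapped its neighbours in the order of means. For JUP, Addback EDTA (417 and 535 CPM) overlapped both of its neighbours, Vector EDTA and Addback NA.

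The first comparison asked how the 6 transcripts differed between EDTA and NA libraries of the same derivative. In Vector cells, EDTA libraries held less of both cadherin transcripts and of p120 catenin, while the other 3 catenins were not called. CDH1 had 200 and 192 CPM in Vector EDTA, against 335 and 347 CPM in Vector NA. CDH3 had 442 and 454 CPM in Vector EDTA, against 746 and 742 CPM in Vector NA. CTNND1 had 277 and 272 CPM in Vector EDTA, against 385 and 394 CPM in Vector NA. All 3 genes were lower in both EDTA libraries, with no overlap. Of the genes not called, JUP was also lower and CTNNA1 higher in both EDTA libraries with no overlap. A lack of overlap alone, here and below, thus says little with 2 libraries per group, and its share over all genes tested was not counted. The differences were −0.80 (SE 0.16, adjusted p = 0.00684) for CDH1, −0.73 (SE 0.14, adjusted p = 0.00528) for CDH3 and −0.50 (SE 0.09, adjusted p = 0.00315) for CTNND1, as log2 fold changes in edgeR's quasi-likelihood test. Thus 3 of 6 genes were called, all lower, where 15.3% of all genes tested were called in either direction (adjusted p under 0.05). JUP differed by −0.20 (95% interval −0.44 to 0.05), CTNNB1 by 0.00 (−0.22 to 0.22) and CTNNA1 by 0.06 (−0.14 to 0.25). The calls of CDH1 and CDH3 ended without Vector EDTA 1, at adjusted p = 0.0554 and 0.0531. JUP was called only when the Vector libraries were fitted alone (adjusted p = 0.0448).

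In B4-4 cells the difference had the opposite sign for both cadherins and p120 catenin, and only 2 of 6 genes, CTNNB1 and CTNND1, were called, where 19.9% of all genes tested were. CTNNB1 had 434 and 455 CPM in B4-4 EDTA, against 305 and 370 CPM in B4-4 NA. CTNND1 had 419 and 408 CPM in B4-4 EDTA, against 354 and 316 CPM in B4-4 NA. Both EDTA libraries lay above both NA libraries for each gene. CTNNB1 rose by 0.40 (SE 0.10, adjusted p = 0.0184) and CTNND1 by 0.30 (SE 0.09, adjusted p = 0.0349) on the log2 scale. CDH1 had 443 and 469 CPM in B4-4 EDTA, against 322 and 359 CPM in B4-4 NA, a difference of 0.42 (SE 0.16) that was not called (adjusted p = 0.0842). CDH3 differed by 0.30 (SE 0.14, adjusted p = 0.161), JUP by 0.16 (SE 0.11, adjusted p = 0.318) and CTNNA1 by −0.06 (SE 0.09, adjusted p = 0.658). The CTNNB1 call ended without B4-4 EDTA 1 or 2 (adjusted p = 0.0890 and 0.133) and when the B4-4 libraries were fitted alone (0.133), and its size fell to 0.26 without B4-4 NA 1. The CTNND1 call ended in 9 of 12 fits that left out a library, each Vector, B4-4 EDTA and Addback NA library and B4-4 NA 2 (adjusted p = 0.0522 to 0.218), and with upper-quartile scaling (0.0785), no filter on low counts (0.0705) or the B4-4 libraries alone (0.180), whereas CDH1 became called without Addback EDTA 1 or 2 (0.00627 and 0.00623) or without the filter (0.00424), and CDH3 without B4-4 NA 2 (0.0302).

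In Addback cells 0 of 6 genes were called by edgeR or by DESeq2, where edgeR called 16.9% of all genes tested, and 1 of 6, CTNND1, had an unadjusted p under 0.05. CDH1 had 170 and 269 CPM in Addback EDTA, against 218 and 205 CPM in Addback NA. CDH3 had 318 and 431 CPM in Addback EDTA, against 400.0 and 361 CPM in Addback NA. For both cadherins the 2 EDTA libraries lay on either side of the NA libraries. CTNND1 had 292 and 319 CPM in Addback EDTA, against 367 and 346 CPM in Addback NA, a difference of −0.22 (SE 0.09, adjusted p = 0.116). The 95% intervals, which rest on a spread shared by the 6 groups, were −0.30 to 0.40 for CDH1 and −0.33 to 0.29 for CDH3. The differences in Addback turned on 1 library. Without Addback EDTA 2 they were −0.32 for CDH1 and −0.26 for CDH3, and without Addback EDTA 1 they were 0.35 and 0.19. The intervals therefore do not settle whether the cadherins fell in Addback cells. CTNNB1 differed by −0.07, JUP by 0.08 and CTNNA1 by 0.10 on the log2 scale. CDH1 became called without Addback EDTA 1 (adjusted p = 0.0383) and CTNND1 without B4-4 NA 1 or 2 (0.0291 and 0.0442).

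Averaged over the 3 derivatives, 0 of 6 genes differed between EDTA and NA by edgeR or DESeq2, where edgeR called 9.18% of all genes tested, and 1 of 6, CTNND1, had an unadjusted p under 0.05. The averaged log2 differences ran from −0.15 for CDH3 to 0.11 for CTNNB1. Calls appeared without B4-4 NA 1 for CDH3 (adjusted p = 0.0442), without B4-4 NA 2 for CTNNB1 (0.0341) and CTNND1 (0.0263), and without Addback EDTA 2 for CDH1 (0.0324).

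**Figure D2:**
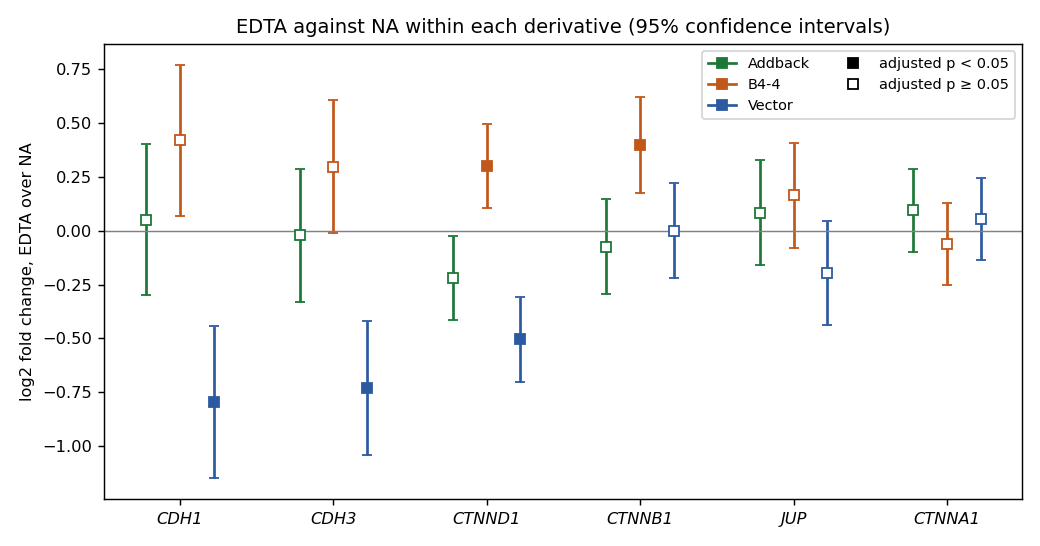
Log2 fold change of EDTA over NA for the 6 genes in each derivative, with 95% confidence intervals; filled squares mark an adjusted p under 0.05. CDH1, CDH3 and CTNND1 lie between −0.80 and −0.50 in Vector cells and between 0.30 and 0.42 in B4-4 cells.

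The difference between these EDTA effects was tested directly. The effect in B4-4 minus that in Vector was 1.22 (SE 0.23, adjusted p = 0.00272) for CDH1, 1.03 (SE 0.20, adjusted p = 0.00325) for CDH3 and 0.81 (SE 0.13, adjusted p = 0.000958) for CTNND1, on the log2 scale. These 3 of 6 calls stood beside 27% of all genes tested, and they held in all 12 fits that left out a library and under every other setting tried. CTNNB1 (0.40, SE 0.14, adjusted p = 0.0575) and JUP (0.36, SE 0.16, adjusted p = 0.109) were not called. Both became called without Addback EDTA 1 (adjusted p = 0.0464 for CTNNB1 and 0.0358 for JUP) or Addback EDTA 2 (0.0462 and 0.0356), and CTNNB1 also without B4-4 NA 2 (0.00348). CTNNA1 differed by −0.12 (95% interval −0.39 to 0.15).

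The EDTA effect in Addback also differed from that in Vector for the 2 cadherins, by 0.85 (SE 0.23, adjusted p = 0.0189) for CDH1 and 0.71 (SE 0.20, adjusted p = 0.0232) for CDH3, where 24.2% of all genes tested were called. The CDH1 call ended without Vector EDTA 1, Vector EDTA 2, Vector NA 2, Addback NA 1 or Addback NA 2 (adjusted p = 0.0546 to 0.0728), and its size fell to 0.48 without Addback EDTA 2. The CDH3 call ended without Vector EDTA 1, Vector NA 1, Vector NA 2, Addback EDTA 2, Addback NA 1 or Addback NA 2 (adjusted p = 0.0502 to 0.0933). Between Addback and B4-4 the EDTA effect differed for CTNND1, by −0.52 (SE 0.13, adjusted p = 0.0257), 1 of 6 genes beside 8.78% of all genes tested. That call ended without either Vector NA, B4-4 EDTA or Addback NA library or Addback EDTA 1 (adjusted p = 0.0621 to 0.135), and with the B4-4 and Addback libraries alone (0.0796). In the Addback and Vector contrast CTNND1 became called without B4-4 NA 1 or 2 (adjusted p = 0.0453 and 0.0433) and JUP without Addback EDTA 1 (0.0239). In the Addback and B4-4 contrast CTNNB1 became called without B4-4 NA 2 (0.00357) and in DESeq2 (0.0262), and CDH1 without Addback EDTA 2 (0.00832). These contrasts share the libraries of the derivative they have in common.

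A further question was how the derivatives differed under the same label. Between B4-4 and Vector NA libraries 0 of 6 genes were called by edgeR or DESeq2, where edgeR called 7.16% of all genes tested, and 1 of 6, CTNND1, had an unadjusted p under 0.05. CDH1 had 322 and 359 CPM in B4-4 NA, against 335 and 347 CPM in Vector NA, a log2 difference of 0.00 (95% interval −0.35 to 0.35). CDH3 had 592 and 765 CPM in B4-4 NA, against 746 and 742 CPM in Vector NA, and differed by −0.13 (−0.44 to 0.18). CTNND1 had 354 and 316 CPM in B4-4 NA, against 385 and 394 CPM in Vector NA, and differed by −0.22 (SE 0.09, adjusted p = 0.156), a call gained without B4-4 NA 1 (0.0227). The other 3 catenins differed by −0.06 to 0.10.

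Among EDTA libraries, all members but alpha-catenin were higher in B4-4 than in Vector. CDH1 had 443 and 469 CPM in B4-4 EDTA, against 200 and 192 CPM in Vector EDTA, a rise of 1.22 (SE 0.16, adjusted p = 0.000143) on the log2 scale. CDH3 had 815 and 851 CPM in B4-4 EDTA, against 442 and 454 CPM in Vector EDTA, a rise of 0.89 (SE 0.14, adjusted p = 0.000423). CTNND1 had 419 and 408 CPM in B4-4 EDTA, against 277 and 272 CPM in Vector EDTA, a rise of 0.59 (SE 0.09, adjusted p = 0.000314). None of these 3 pairs of groups overlapped, and the E-cadherin transcript showed the largest difference of the 6. CTNNB1 had 434 and 455 CPM in B4-4 EDTA, against 309 and 320 CPM in Vector EDTA, a rise of 0.50 (SE 0.10, adjusted p = 0.00196). JUP had 592 and 616 CPM in B4-4 EDTA, against 471 and 510 CPM in Vector EDTA, a rise of 0.30 (SE 0.11, adjusted p = 0.0448). The 5 of 6 genes called were all higher, where 43.4% of all genes tested were called in either direction. CTNNA1 had 769 and 782 CPM in B4-4 EDTA, against 821 and 822 CPM in Vector EDTA, and differed by −0.08 (SE 0.09, adjusted p = 0.476). The JUP call ended without any 1 of the Vector, B4-4 EDTA or Addback NA libraries (adjusted p = 0.0616 to 0.234 in these 8 fits), with RLE factors (0.0565) or upper-quartile factors (0.130), and in DESeq2 (0.0583).

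**Figure D3:**
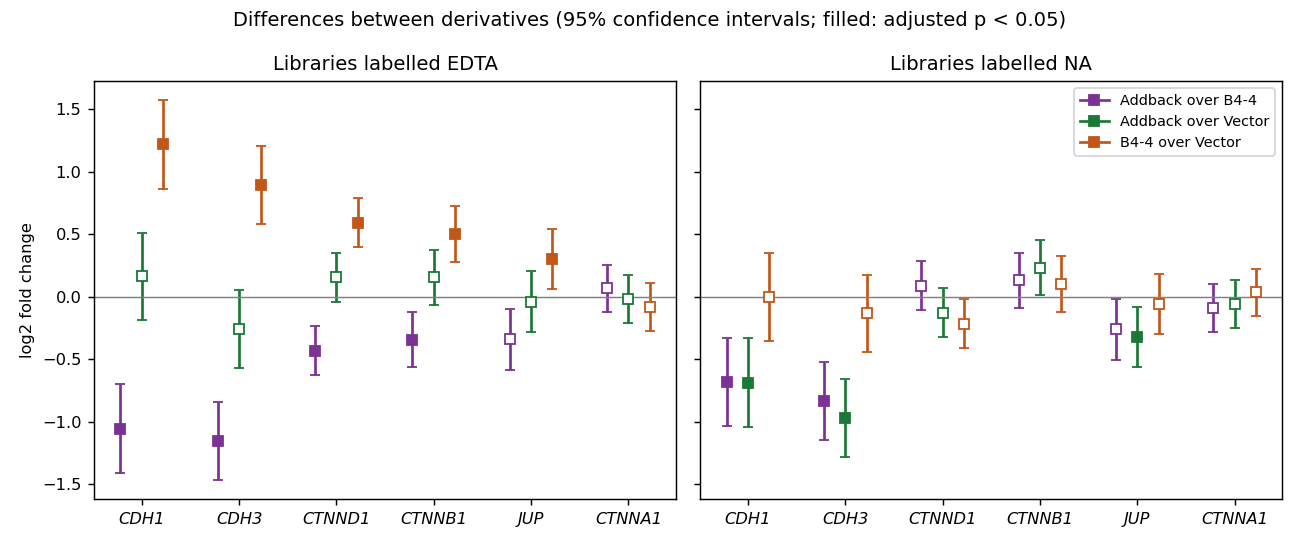
Log2 fold changes between derivatives for the 6 genes, among EDTA libraries (left) and NA libraries (right), with 95% confidence intervals; filled squares mark an adjusted p under 0.05. B4-4 over Vector runs from −0.22 (CTNND1) to 0.10 (CTNNB1) in NA libraries and reaches 1.22 for CDH1 in EDTA libraries. Addback over B4-4 is at or below −0.69 for both cadherins in both panels.

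Addback libraries held less of both cadherin transcripts than B4-4 libraries under either label. Among EDTA libraries, CDH1 had 170 and 269 CPM in Addback, against 443 and 469 CPM in B4-4, a difference of −1.06 (SE 0.16, adjusted p = 0.00149). CDH3 had 318 and 431 CPM in Addback EDTA, against 815 and 851 CPM in B4-4 EDTA, a difference of −1.15 (SE 0.14, adjusted p = 0.000319). CTNND1 had 292 and 319 CPM in Addback EDTA, against 419 and 408 CPM in B4-4 EDTA, and fell by 0.43 (SE 0.09, adjusted p = 0.00797). The groups did not overlap for any of these genes. CTNNB1 had 335 and 366 CPM in Addback EDTA, against 434 and 455 CPM in B4-4 EDTA, and fell by 0.34 (SE 0.10, adjusted p = 0.0414). In all, 4 of 6 genes were called, all lower, where 14.1% of all genes tested were called. JUP differed by −0.34 (SE 0.11, adjusted p = 0.0602) and CTNNA1 by 0.07 (SE 0.09, adjusted p = 0.668). The CTNND1 call ended without B4-4 EDTA 1, B4-4 EDTA 2 or Addback EDTA 1 (adjusted p = 0.0919, 0.0627 and 0.0597), and the CTNNB1 call without either Vector NA, B4-4 EDTA or Addback NA library or Addback EDTA 1 (0.0674 to 0.229) or with upper-quartile factors (0.0763). JUP became called without B4-4 NA 1, B4-4 NA 2 or Addback EDTA 2 (0.0231, 0.0258 and 0.00549), without the filter (0.0272) and in DESeq2 (0.0427).

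Among NA libraries the cadherins alone were called between Addback and B4-4, 2 of 6 genes beside 23.6% of all genes tested. CDH3 had 400.0 and 361 CPM in Addback NA, against 592 and 765 CPM in B4-4 NA, a difference of −0.83 (SE 0.14, adjusted p = 0.00172). CDH1 had 218 and 205 CPM in Addback NA, against 322 and 359 CPM in B4-4 NA, a difference of −0.69 (SE 0.16, adjusted p = 0.0105). Both Addback libraries lay below both B4-4 libraries for each cadherin. The CDH1 call ended without B4-4 NA 2, Addback NA 1 or Addback NA 2 (adjusted p = 0.0634, 0.0639 and 0.0799). CTNNB1 became called without B4-4 NA 2 (0.0468), and JUP without Addback EDTA 1 or 2 (0.0351 and 0.0350).

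Set against Vector, Addback differed among NA libraries in both cadherins and plakoglobin, 3 of 6 genes, all lower, beside 36.1% of all genes tested. CDH3 had 400.0 and 361 CPM in Addback NA, against 746 and 742 CPM in Vector NA, a difference of −0.97 (SE 0.14, adjusted p = 0.000321). CDH1 had 218 and 205 CPM in Addback NA, against 335 and 347 CPM in Vector NA, a difference of −0.69 (SE 0.16, adjusted p = 0.00628). JUP had 462 and 436 CPM in Addback NA, against 563 and 560 CPM in Vector NA, a difference of −0.32 (SE 0.11, adjusted p = 0.0401). No Addback library reached the Vector range in any of the 3 genes. The CDH1 call ended without Addback NA 2 (adjusted p = 0.0552), and the JUP call without any 1 of the Vector NA, B4-4 EDTA or Addback NA libraries (0.0635 to 0.192) or with upper-quartile factors (0.0614). CTNNB1 (0.23, adjusted p = 0.0949) became called without B4-4 NA 1 or 2 (0.0157 and 0.0252) and with the Addback and Vector NA libraries alone (0.000172), as did CTNND1 in that last fit (0.0127).

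Among EDTA libraries, 0 of 6 genes were called between Addback and Vector by edgeR or DESeq2, and 0 of 6 had an unadjusted p under 0.05, where edgeR called 30% of all genes tested. CDH1 had 170 and 269 CPM in Addback EDTA, against 200 and 192 CPM in Vector EDTA (0.16, 95% interval −0.19 to 0.51). CDH3 had 318 and 431 CPM in Addback EDTA, against 442 and 454 CPM in Vector EDTA (−0.26, 95% interval −0.57 to 0.05). The 2 Addback EDTA libraries were far apart for both cadherins, and the calls turned on which of them was kept: CDH1 became called without Addback EDTA 1 (adjusted p = 0.00823) and CDH3 without Addback EDTA 2 (0.0297). Addback EDTA 2 is also the only library whose description in the labels ends in L007, the others ending in L008.

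Because the 2 members of each paralogue pair are counted in the same library, their ratio does not depend on how libraries are scaled. There were 1.60 to 2.36 CDH3 reads per CDH1 read in the 12 libraries. The ratio was 1.87 and 1.60 in Addback EDTA, against 1.83 and 1.76 in Addback NA. It was 1.84 and 1.82 in B4-4 EDTA, against 1.84 and 2.13 in B4-4 NA, and 2.21 and 2.36 in Vector EDTA, against 2.23 and 2.14 in Vector NA. The ratio thus varied less than either cadherin, each of which ranged over at least 2.67-fold. Every Vector ratio lay above every ratio of the other derivatives. The lowest Vector ratio, 2.14, was close to 2.13 in B4-4 NA 2, while the remaining B4-4 and Addback ratios ran from 1.60 to 1.87. The difference in this ratio between derivatives was not tested. The mean log2 ratio differed between EDTA and NA within derivatives by −0.03 (two-sided exact permutation test, p = 0.574, adjusted over the 2 ratios 0.574).

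There were 1.22 to 1.79 JUP reads per CTNNB1 read. This ratio was 1.24 and 1.46 in Addback EDTA, against 1.22 and 1.22 in Addback NA. It was 1.36 and 1.35 in B4-4 EDTA, against 1.70 and 1.51 in B4-4 NA, and 1.52 and 1.59 in Vector EDTA, against 1.78 and 1.79 in Vector NA. The ratio was lower in both EDTA libraries of B4-4 and of Vector and higher in both of Addback. The mean log2 difference within derivatives was −0.10 (two-sided exact permutation test, p = 0.222, adjusted over the 2 ratios 0.444), with 0.00926 the smallest p that the 216 arrangements allow.

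**Figure D4:**
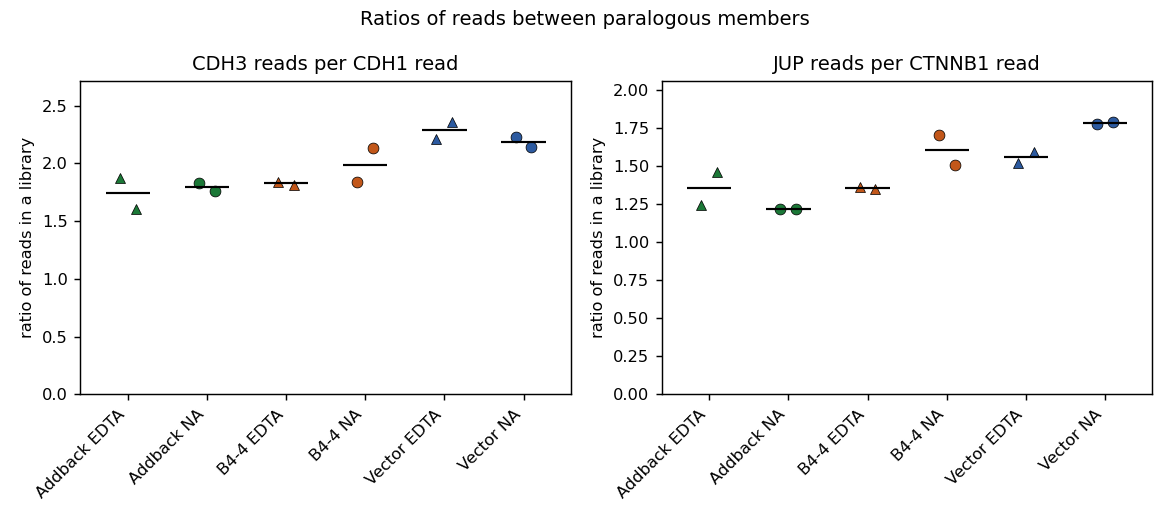
CDH3 reads per CDH1 read (left) and JUP reads per CTNNB1 read (right) in each library, on linear axes from 0; triangles are EDTA, circles are NA and black lines are means of 2 libraries. The left ratio stays between 1.60 and 2.36, and the right ratio is lower in EDTA than in NA libraries of B4-4 and Vector.

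Other cadherins and the known repressors of CDH1 were read beside the 6 genes. Of 13 other cadherins 6 passed the filter, and CDH5, CDH6 and CDH8 were at 0 in every library. The counts called with EDTA in the lists that follow stand beside 15.3% of all genes tested in Vector, 19.9% in B4-4 and 16.9% in Addback cells, and those between B4-4 and Vector EDTA libraries beside 43.4%. With EDTA in Vector cells, 3 of the 6 were called higher and 1 lower (1 to 3 higher with a library left out), with a median of 0.37 against 0.00 for all genes tested (log2). CDH2, which encodes N-cadherin, had 28.5 and 27.5 CPM in Vector EDTA, against 8.24 and 6.94 CPM in Vector NA, and rose by 1.88 (SE 0.30, adjusted p = 0.00302). The N-cadherin transcript was higher in both EDTA libraries, with no overlap. In B4-4 cells CDH2 had 19.6 and 16.2 CPM with EDTA, against 21.9 and 15.2 CPM with NA. In Addback cells CDH2 had 25.1 and 51.1 CPM with EDTA, against 53.6 and 51.4 CPM with NA. CDH2 was also called higher in B4-4 NA than in Vector NA (1.29, adjusted p = 0.0348 in edgeR), where CDH1 differed by 0.00. That call ended in 9 of 12 fits that left out a library. CDH16 had 8 and 8 counts in Vector EDTA, against 47 and 41 counts in Vector NA. In Addback cells 1 of the 6 was called higher and 2 lower (median −0.53 against 0.01). CDH13, a cadherin held by a lipid anchor without a cytoplasmic tail, had 121 and 94.1 CPM in Addback EDTA, against 226 and 226 CPM in Addback NA, and fell by 1.07 (SE 0.14, adjusted p = 0.000468).

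Of 9 CDH1 repressors tested, 3 rose with EDTA in Vector cells and 6 were not called (median 0.36 against 0.00), while 1 fell in B4-4 cells and 1 fell in Addback cells. SNAI2, the repressor Slug, had 285 and 261 CPM in Vector EDTA, against 69.2 and 70.3 CPM in Vector NA, and rose by 1.97 (SE 0.27, adjusted p = 0.00160). SNAI2 had 62.9 and 65.1 CPM in B4-4 EDTA, against 129 and 142 CPM in B4-4 NA, and fell by 1.08 (SE 0.26, adjusted p = 0.0212). The SNAI2 groups did not overlap in either derivative, although the B4-4 call ended without any of the 4 B4-4 libraries (adjusted p up to 0.141). Among EDTA libraries, 2 of the 9 repressors were higher and 4 lower in B4-4 than in Vector, SNAI2 by −2.09 (SE 0.27, adjusted p = 0.000296) and TWIST1 by −0.86 (SE 0.19, adjusted p = 0.00344). The NA libraries of the derivatives were compared as well. SNAI2 had 129 and 142 CPM in B4-4 NA, against 69.2 and 70.3 CPM in Vector NA, where CDH1 differed by 0.00. That SNAI2 difference was not called. In Addback NA SNAI2 had 65.2 and 80.3 CPM, on either side of Vector NA, and CDH1 differed there by −0.69 from Vector NA. ZEB2 did not exceed 11.4 CPM in any library. It had 11.4 and 10.2 CPM in Addback NA, against 1.07 and 0.617 CPM in Vector NA. With EDTA, ZEB2 rose by 1.75 in Vector cells (adjusted p = 0.0151 in edgeR) and differed by −1.34 in Addback cells (0.0180). Each of these calls ended in 3 fits that left out a library. Between Addback and Vector NA libraries 1 of the 9 repressors was called higher and 1 lower, beside 36.1% of all genes tested. The part of the repressors in the CDH1 results was not tested. With each library left out in turn, 1 to 4 of the 9 rose in Vector cells with EDTA.

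**Figure D5:**
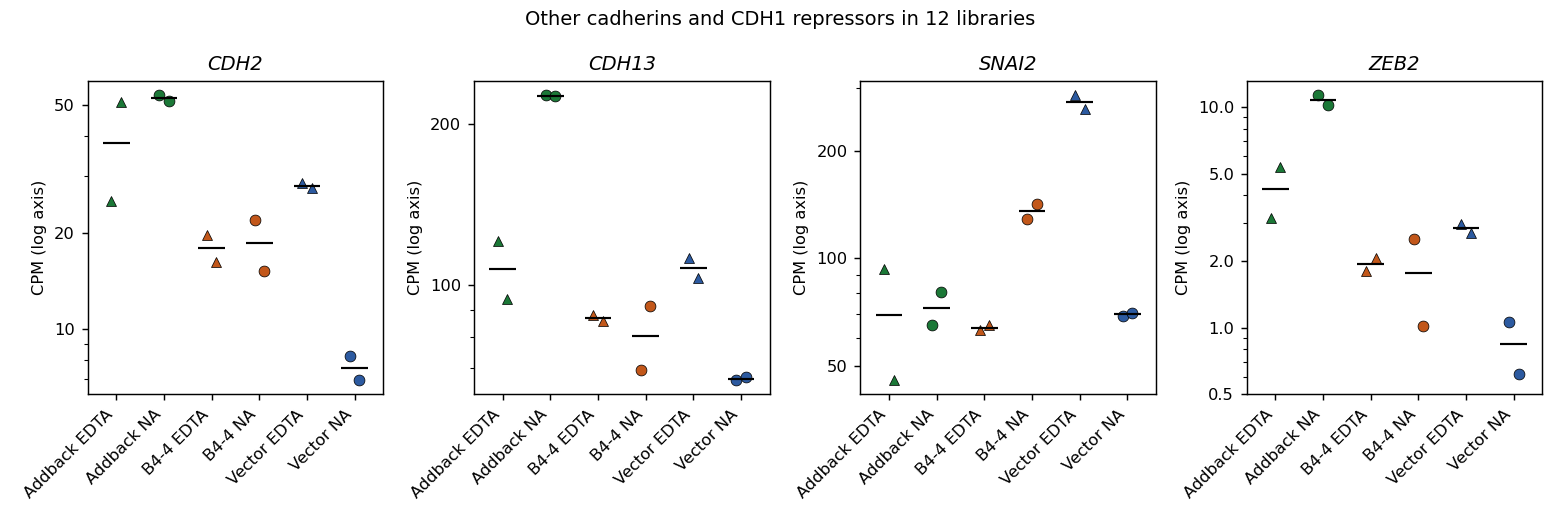
CPM of CDH2, CDH13, SNAI2 and ZEB2 in each library, on log axes; triangles are EDTA, circles are NA and black lines are means of 2 libraries. SNAI2 is highest in Vector EDTA at 285 and 261 CPM, and CDH13 is highest in Addback NA.

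SNAI and ZEB proteins bind E-boxes, and a promoter of a member with such letters is shown for that reason. The RefSeq promoter table (GRCh38.p14) held 7 windows of 300 bases for 3 of the 6 members, CTNNA1, CTNNB1 and JUP. The E-box CAGGTG and its reverse complement CACCTG, searched on both strands, occurred in 1 of the 7 windows, that of JUP at chr17:41785927-41786226 on the minus strand, and in 20.6% of all 35116 windows. Its 2 matches are in capitals.
JUP promoter: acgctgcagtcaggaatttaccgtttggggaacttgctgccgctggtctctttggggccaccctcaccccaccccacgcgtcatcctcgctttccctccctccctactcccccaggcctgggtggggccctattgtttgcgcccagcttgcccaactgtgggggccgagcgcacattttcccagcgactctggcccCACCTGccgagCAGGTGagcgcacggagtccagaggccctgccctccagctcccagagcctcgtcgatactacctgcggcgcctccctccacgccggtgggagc
These letters describe the window and say nothing of which factor was bound there in these cells.

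The plaque and actin linkers of adherens junctions were tested in the same contrasts. Of 18 tested, 8 fell with EDTA in Vector cells and the other 10 were not called (median −0.27 against 0.00), while in B4-4 cells 5 rose and 1 fell (0.14 against −0.01). AJUBA, a LIM protein that binds alpha-catenin, had 41.6 and 40.7 CPM in Vector EDTA, against 72.0 and 76.2 CPM in Vector NA, and fell by 0.85 (SE 0.09, adjusted p = 0.000120). AJUBA had 117 and 114 CPM in B4-4 EDTA, against 58.4 and 61.8 CPM in B4-4 NA, and rose by 0.94 (SE 0.09, adjusted p = 7.64e-05). In Addback cells 2 of the 18 rose and 4 fell (0.04 against 0.01), with AJUBA up by 0.86 (SE 0.09, adjusted p = 0.000119) and TJP1, the scaffold ZO-1, down, at −1.04 (SE 0.11, adjusted p = 0.000113). PLEKHA7, which binds p120 catenin, had 8.52 and 8.64 CPM in Vector EDTA, against 18.6 and 16.8 CPM in Vector NA, and fell by 1.04 (SE 0.16, adjusted p = 0.00139). Among EDTA libraries, 9 of the 18 were higher and 2 lower in B4-4 than in Vector (0.30 against 0.00), led by AJUBA at 1.48 (SE 0.09), PLEKHA7 at 1.34 (SE 0.16) and SHROOM3, an actin regulator of apical junctions, at 0.88 (SE 0.11). With each library left out in turn, 5 to 9 of the 18 fell in Vector cells and 2 to 5 rose in B4-4 cells with EDTA.

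Epithelial transcription and splicing factors, several of which support CDH1 expression, were tested for 13 genes. With EDTA, 6 fell and 7 were not called in Vector cells (median −0.48 against 0.00), 1 rose and 2 fell in B4-4 cells (−0.22 against −0.01), and 2 rose and 3 fell in Addback cells (−0.23 against 0.01). GRHL1, a grainyhead factor, had 5.51 and 4.17 CPM in Vector EDTA, against 14.5 and 14.7 CPM in Vector NA, and fell by 1.59 (SE 0.24, adjusted p = 0.00131). OVOL1, a zinc finger factor of epithelia, had 2 and 5 counts in Vector EDTA, against 38 and 51 counts in Vector NA. GRHL3, a related grainyhead factor, had 43.0 and 26.0 CPM in Addback EDTA, against 169 and 137 CPM in Addback NA, and fell by 2.15 (SE 0.21, adjusted p = 0.000112). The 3 genes were lower in EDTA libraries with no overlap. Among EDTA libraries 5 of the 13 were higher and 3 lower in B4-4 than in Vector (0.36 against 0.00), with the splicing factor ESRP2 up by 1.07 (SE 0.13, adjusted p = 5.68e-05) and GRHL3 at −0.92 (SE 0.20, adjusted p = 0.00382). With each library left out in turn, 3 to 9 of the 13 fell in Vector cells with EDTA.

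Genes that process or phosphorylate cadherins included 17 tested. With EDTA, 2 rose and 1 fell in Vector cells (median −0.05), 5 rose in B4-4 cells (0.15), and 2 rose and 2 fell in Addback cells (0.05). With a library left out, 0 to 4 fell in Vector cells and 1 to 6 rose in B4-4 cells, and 0 to 6 rose there under the other settings. ADAM17, a sheddase, fell by 0.92 (SE 0.13, adjusted p = 0.000801) in Addback cells, and SRC, a kinase that phosphorylates junction proteins, rose there by 0.91 (SE 0.14, adjusted p = 0.00135). Among EDTA libraries 7 of the 17 were higher and 4 lower in B4-4 than in Vector, with SRC at 0.88 (SE 0.14) and the phosphatase PTPN1 at 0.75 (SE 0.09). Of 14 small GTPases and partners of p120 and alpha-catenin, 2 fell with EDTA in Vector cells (median −0.07) and 3 rose in B4-4 cells (0.29), while 3 rose and 2 fell in Addback cells (0.06). The rises in B4-4 numbered 0 to 6 with a library left out and 0 to 5 under the other settings. RACGAP1, a GTPase-activating protein found with alpha-catenin at junctions, fell by 0.64 (SE 0.08, adjusted p = 0.000413) in Vector cells and rose by 0.46 (SE 0.08, adjusted p = 0.00360) in Addback cells. Among EDTA libraries 7 of the 14 were higher in B4-4 than in Vector, among them the exchange factors ECT2 at 0.70 (SE 0.13) and VAV2 at 0.60 (SE 0.11).

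The genes that degrade or act with beta-catenin were read beside CTNNB1. Of 11 destruction complex genes, 2 fell with EDTA in Vector cells (median −0.08) and 1 rose in Addback cells (0.20), near the share of all genes tested in Vector. With a library left out, 0 to 2 fell in Vector cells and 0 to 3 rose in Addback cells, and the calls of both genes that fell, CSNK1A1 and GSK3B, ended in 6 and 8 of 12 such fits. Among EDTA libraries 2 of the 11 were higher and 1 lower in B4-4 than in Vector, the kinase gene GSK3B at 0.58 (SE 0.10, adjusted p = 0.000901) and TNKS at −0.91 (SE 0.14, adjusted p = 0.000268). Of 13 TCF factors and beta-catenin targets, 1 rose and 2 fell with EDTA in Vector cells (median 0.14), 3 rose in B4-4 cells (−0.05), and 2 rose and 1 fell in Addback cells (0.11). With a library left out, 2 to 4 fell in Vector cells, 2 to 4 rose in B4-4 cells and 0 to 2 rose in Addback cells. CCND1, which encodes cyclin D1, had 295 and 301 CPM in B4-4 EDTA, against 131 and 141 CPM in B4-4 NA, and rose by 1.14 (SE 0.14, adjusted p = 0.000460). RNF43, a ligase that lowers Wnt receptors, had 9.13 and 7.67 CPM in Vector EDTA, against 19.3 and 18.1 CPM in Vector NA, and fell by 1.16 (SE 0.21, adjusted p = 0.00316). Among EDTA libraries 4 of the 13 were higher and 3 lower in B4-4 than in Vector, beside the 43.4% of all genes tested. DKK1, a secreted Wnt antagonist, had 34.3 and 34.7 CPM in B4-4 EDTA, against 0.37 and 0.44 CPM in Vector EDTA.

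Markers of cell identity also differed between groups, in part in step with the cadherins. The 8 basal epithelial markers summed to 11256 to 11613 CPM in Vector EDTA, against 15409 to 15506 CPM in Vector NA, and to 15964 to 16772 CPM in B4-4 EDTA, against 12159 to 12695 CPM in B4-4 NA. In Addback they summed to 10919 to 12232 CPM with EDTA, against 10233 to 10674 CPM with NA. Neither cadherin was called in Addback cells, where the basal sum did not overlap between EDTA and NA. Of the 8, 2 fell in Vector cells (median −0.17), 2 rose and 1 fell in B4-4 cells (0.35) and 3 rose in Addback cells (−0.07) with EDTA. The other 5 were not called in Addback cells, and the sums weigh the most abundant keratins most. With a library left out, 1 to 3 fell in Vector, 2 to 5 rose in B4-4 and 1 to 3 rose in Addback cells, where the KRT14 call ended in 10 of 12 such fits. KRT6A had 1011 and 1066 CPM in Vector EDTA, against 2131 and 2141 CPM in Vector NA. The 9 luminal markers summed to 1599 to 1712 CPM in Vector EDTA, against 2397 to 2398 CPM in Vector NA. They summed to 2943 to 3157 CPM in B4-4 EDTA, within the 2291 to 3459 CPM of B4-4 NA, and to 1958 to 3045 CPM in Addback EDTA, against 1713 to 1723 CPM in Addback NA. The 10 fibroblast and mesenchymal markers summed to 36.0 to 36.2 CPM in Vector EDTA, against 25.3 to 27.5 CPM in Vector NA, and 2 of the 6 tested rose there. In Addback libraries this sum was 51.8 to 134 CPM with EDTA, against 73.5 to 74.8 CPM with NA, with COL3A1 at 0 in all 4. In B4-4 libraries it was 58.5 to 60.2 CPM with EDTA, against 23.9 to 62.7 CPM with NA, with COL1A2 at 0 in all 4. Other markers of this list were present. In Addback NA, DCN had 19.0 and 19.3 CPM, FAP 16.8 and 17.9 CPM and POSTN 10.8 and 9.81 CPM. Between Addback and Vector NA libraries 5 of the 6 tested were called higher, beside 36.1% of all genes tested. The 9 endothelial and leukocyte markers summed to 10.9 to 86.2 CPM over the 12 libraries. The part of these markers in the cadherin results was not tested.

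Across the 12 libraries the 2 cadherins and plakoglobin followed similar profiles. Pearson's r of log2 CPM was 0.94 between CDH1 and CDH3, 0.92 between CDH1 and JUP and 0.93 between CDH3 and JUP. CDH1 and CTNND1 had r = 0.78, and CTNNA1 had r between −0.48 and 0.30 with the other 5. Among 10539 genes searched, the profile most like that of CDH1 was PLXNA2, a semaphorin receptor (r = 0.97), followed by SCD5 and MYORG (0.96 and 0.95). PLXNA2 had 233 and 221 CPM in B4-4 EDTA, against 81.2 and 85.6 CPM in Vector EDTA. For CDH3 the nearest were MYORG, SIPA1L1 and SLCO3A1 (0.97, 0.95 and 0.95), and for JUP they were SCARA3, SIPA1L1 and MRAS (0.95, 0.94 and 0.94). CTNND1 was followed most closely by SMURF1, MARK2 and STK38L (0.97, 0.95 and 0.93), and CTNNB1 by PDLIM7, MSN and WDR1 (0.98, 0.98 and 0.97). The nearest to CTNNA1 were ALDH4A1, RPN2 and LAPTM4A (0.91, 0.91 and 0.90), over its narrow range. These values describe 12 libraries in 6 groups that share derivatives and treatments, and the highest of many correlations are high by selection.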

How the data were processed

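RNA-seq was measured in 12 libraries of MCF10-A derivatives. The table the authors deposited gives raw counts of reads for each Ensembl gene. Per the submitters' processing notes the tools were featureCounts 1.5.3, TopHat2 2.1.1 and SAMtools 1.4.1, listed with the builds GRCh38, hg19 and hg38 and no roles. Neither annotation release nor strand setting is stated in the sources used here. Symbols matched 57392 of 58233 genes. The counts were filtered (edgeR's filterByExpr), scaled by TMM over the genes kept, and fitted with edgeR 4.0.16 in R 4.3.3 (quasi-likelihood, 6 groups, no other covariate), with Benjamini-Hochberg adjustment over all 15749 genes and calls at an adjusted p under 0.05. Scripts were tested on simulated data. Totals of 15685376 to 22156173 counts set the precision. Alternatives were RLE and upper-quartile factors, no filter, DESeq2 1.42.0, the compared groups alone, a replicate block and each library left out. Exact permutation tests compared ratios. Sequences were read with Biopython 1.88 from GENCODE 29 and the RefSeq table. Called members are named in every contrast, and some members that were not called are left out. From each list up to 4 genes with the smallest p over the 5 contrasts of EDTA with NA and of B4-4 with Vector could be named, called genes first, and for each member the 3 genes of highest Pearson correlation where the mean CPM was 5 or more. The members and lists were chosen with earlier results of these data known.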

Additional observations from a re-analysis of the deposited data

Results flagged for a closer look

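Results are given here where the EDTA effect (EDTA minus NA, log2 scale) differed between derivatives by a test of the difference itself in edgeR. CDH1 differed by 1.22 between B4-4 and Vector (adjusted p = 0.00272), with effects of 0.42 in B4-4 and −0.80 in Vector. CDH3 differed by 1.03 (adjusted p = 0.00325), with effects of 0.30 in B4-4 and −0.73 in Vector. CTNND1 differed by 0.81 (adjusted p = 0.000958), with effects of 0.30 in B4-4 and −0.50 in Vector. Between Addback and Vector the effect differed by 0.85 for CDH1 (adjusted p = 0.0189; 0.0546 to 0.0728 without Vector EDTA 1, Vector EDTA 2, Vector NA 2, Addback NA 1 or Addback NA 2) and by 0.71 for CDH3 (adjusted p = 0.0232; 0.0502 to 0.0933 without Vector EDTA 1, Vector NA 1, Vector NA 2, Addback EDTA 2, Addback NA 1 or Addback NA 2). Between Addback and B4-4 it differed by −0.52 for CTNND1 (adjusted p = 0.0257; 0.0621 to 0.135 without either Vector NA, B4-4 EDTA or Addback NA library or Addback EDTA 1), with effects of −0.22 in Addback and 0.30 in B4-4.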

How the results depend on the processing

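No member's call reversed under any alternative. Of 25 called results of the 6 genes, 12 held under every alternative, and of 53 not called, 23 became called under at least 1. The count of members called between EDTA and NA in B4-4 cells was 2, and 1 with upper-quartile factors and 0 with the B4-4 libraries alone. For the EDTA effect in Addback minus that in B4-4 it was 1, and 2 in DESeq2 and 0 with those libraries alone, and for Addback minus Vector in NA libraries 3, and 5 with those libraries alone. The cause was not tested. With each library left out in turn, the EDTA counts were 1 to 3 in Vector, 0 to 3 in B4-4, 0 to 1 in Addback and 0 to 2 over the 3 derivatives. B4-4 minus Vector gave 0 to 1 in NA and 4 to 5 in EDTA libraries, Addback minus B4-4 gave 1 to 3 in NA and 2 to 5 in EDTA, and Addback minus Vector gave 1 to 4 in NA and 0 to 1 in EDTA. The EDTA effects differed in 3 to 5 genes (B4-4 minus Vector), 0 to 3 (Addback minus Vector) and 0 to 2 (Addback minus B4-4). The log2 ratio difference ranged from −0.0703 to 0.00423 for CDH3 to CDH1 and from −0.135 to −0.0565 for JUP to CTNNB1. Where a group kept 1 library, it was assumed to vary like the other groups. Same-numbered libraries did not deviate together (15 correlations between −0.0513 and 0.0748), and the replicate block changed no call of a member. Small differences are not resolved with 2 libraries per group.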
